A study of Mus musculus with 18 samples.

Results

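The red cell membrane skeleton was followed through 9 mouse genes, Sptb, Ank1, Epb41, Epb42, Slc4a1, Dmtn, Add1, Add2 and Tmod1, out of 46167 genes with a matched transcript in the tables. They were taken by symbol from a list of the spectrin-actin skeleton and its anchors that was set with earlier results of these data known. Shares of all genes are therefore given beside their counts as a scale, not as a test of the list. All 9 passed the filter on low counts among the 17500 genes tested. The cells were fetal liver cells of CD-1 mice at embryonic day 14.5, enriched for hematopoietic progenitors with a kit and an antibody to CD71, a transferrin receptor of erythroid precursors. All of them carried an MSCV-PIG retrovirus, which also encodes puromycin resistance and GFP, with a short hairpin RNA. The tested hairpins were directed against Pcbp1 or against Pcbp2, the genes of poly(C)-binding proteins that act in RNA processing, with hairpins numbered 1, 3 and 4 for each target. The controls were the scrambled hairpins SCR-1 and SCR-2 and the luciferase hairpin LUC-1. Each condition was collected at Day 2, after 2 further days in differentiation medium with erythropoietin, and at Day 0, after 48 hours in expansion medium with dexamethasone, erythropoietin and stem cell factor. This gives 6 groups of 3 libraries of total RNA. The labels do not say whether libraries of a group came from separate cultures, so p-values measure only the spread between these libraries, each of which also carries a different hairpin.

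The red cell skeleton is a net of spectrin tetramers whose ends meet on short actin filaments. Sptb encodes the beta chain of spectrin. Ank1, ankyrin, holds that chain to the anion exchanger Slc4a1, known as band 3, and Epb42 strengthens this attachment. Epb41, protein 4.1R, joins spectrin to actin at the filament junctions, Add1 and Add2 encode the adducins that cap the barbed ends, Tmod1 caps the pointed ends, and Dmtn, dematin, bundles actin and helps to hold the junction to the membrane. Several of these genes are mutated in human hereditary spherocytosis or elliptocytosis. Erythroid precursors build up the net as they mature, and alternative splicing of Epb41 and Ank1 is known to change with maturation and cell type.

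The sequences of 3 coding exons are shown, taken from the matching GENCODE M21 transcripts on GRCm38. Capitals mark the exon and lower case the 20 bases on each side in the spliced transcript. The Dmtn exon is shown because its skipping differed between PCBP1 knockdown and control cells, the Slc4a1 exon because its skipping differed by more than 10 points between PCBP1 knockdown and control cells at Day 2 without being called, and the Epb41 exon because its inclusion changed with day. The Dmtn exon lies at chr14:70617955-70618029 on the minus strand, is exon 3 of 16 of Dmtn-201, and has 75 bases, a multiple of 3, and a GC content of 65.3%.
Dmtn: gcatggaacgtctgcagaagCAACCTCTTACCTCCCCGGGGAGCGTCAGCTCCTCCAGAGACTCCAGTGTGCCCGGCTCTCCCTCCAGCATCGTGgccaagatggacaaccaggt
The Slc4a1 exon lies at chr11:102357923-102358104 on the minus strand, is exon 9 of 20 of Slc4a1-201, and has 182 bases, which leaves a remainder of 2 after division by 3.
Slc4a1: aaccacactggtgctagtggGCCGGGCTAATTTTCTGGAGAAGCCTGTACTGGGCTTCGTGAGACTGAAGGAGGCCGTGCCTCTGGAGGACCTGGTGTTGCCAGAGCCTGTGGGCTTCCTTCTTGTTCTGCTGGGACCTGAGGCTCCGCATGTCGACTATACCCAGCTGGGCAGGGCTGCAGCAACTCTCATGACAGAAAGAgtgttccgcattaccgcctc
The Epb41 exon lies at chr4:131962924-131962986 on the minus strand, is exon 15 of 21 of Epb41-201, and has 63 bases, a multiple of 3, and a GC content of 31.7%. It encodes part of the spectrin-actin binding domain of protein 4.1R.
Epb41: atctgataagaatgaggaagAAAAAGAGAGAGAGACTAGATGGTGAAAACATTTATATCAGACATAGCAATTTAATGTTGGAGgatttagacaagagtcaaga

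Libraries held 27033440 to 54096339 estimated reads. Pcbp1 was at 15.6 to 57.2 CPM (reads of a gene relative to those of its library, scaled with TMM factors, which assume that most genes keep their level) in the Day 2 PCBP1 knockdown libraries, against 241 to 284 in the Day 2 controls, and at 14.2 to 59.4 against 186 to 206 at Day 0. Pcbp2 was at 37 to 48 CPM in Day 2 PCBP2 knockdown libraries, against 225 to 247 in controls, and at 70.3 to 73.5 against 282 to 299 at Day 0. The labelled targets were therefore low in the libraries that carry their label. At Day 2 the 50 highest genes took 42.7% to 50.4% of the reads, against 12.8% to 13.5% at Day 0. TMM factors at Day 2 were 0.616 to 0.646 in PCBP1 knockdown, 0.584 to 0.639 in PCBP2 knockdown and 0.503 to 0.57 in controls, so the choice of scaling moves every comparison that includes Day 2. Scaling by library totals shifted the median log2 fold change of all genes to 0.25 for PCBP1 knockdown and 0.19 for PCBP2 knockdown at Day 2, and to -1.68 for Day 2 against Day 0 in controls.

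At Day 2, 8 of the 9 genes were higher than at Day 0 in control cells by edgeR's quasi-likelihood test, where 40.4% of all tested genes were higher. The gains were largest for the anion exchanger and for Epb42. Slc4a1 had 18369, 19006 and 19136 CPM in the Day 2 controls, against 227, 247 and 192 CPM in the Day 0 controls, a log2 fold change of 6.41 (SE 0.143, edgeR adjusted p = 8.49e-22). Epb42 had 1627, 1671 and 1702 CPM at Day 2, against 22.2, 26 and 19.8 CPM at Day 0, a log2 fold change of 6.20. No Day 2 library of either gene came near the Day 0 range. Because the samples are bulk RNA, a larger share of mature erythroid cells and more RNA of a gene per cell cannot be told apart, here or in the comparisons that follow.

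The junction genes rose next. Epb41 had 10327, 10065 and 8847 CPM in Day 2 controls, against 281, 290 and 261 CPM in Day 0 controls, a log2 fold change of 5.13 (edgeR adjusted p = 2.36e-22). Tmod1, the pointed-end cap, rose by a log2 fold change of 5.09 and Dmtn by 5.06 (edgeR adjusted p = 9.25e-20 for Dmtn). Ank1 rose by 2.73, which is 6.63-fold, and Add1 by 2.53, which is 5.77-fold. With library totals Ank1 was at 1.09 and Add1 at 0.89, and Slc4a1 at 4.77, Epb42 at 4.56, Epb41 at 3.50, Tmod1 at 3.45 and Dmtn at 3.41, all still called by edgeR.

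Sptb and Add2 stood at the low end. Sptb had 1532, 1582 and 1737 CPM in Day 2 controls, against 644, 633 and 475 CPM in Day 0 controls, a log2 fold change of 1.47 (edgeR adjusted p = 2.78e-12) that was -0.17 with library totals (adjusted p = 0.119). Add2, the beta adducin, had 314, 275 and 329 CPM at Day 2, against 320, 309 and 249 CPM at Day 0, a log2 fold change of 0.07 (edgeR adjusted p = 0.513) that was -1.57 with library totals. The Day 2 and Day 0 libraries of Add2 overlapped, whereas those of the other 8 genes did not, with no share over all genes given here. The median over the 9 genes was 5.06 on the log2 scale, beside -0.05 over all tested genes.

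Each knockdown kept this order nearly intact. In PCBP1 knockdown cells 8 of 9 genes were higher at Day 2, beside 40.3% of all genes, with Slc4a1 at a log2 fold change of 6.18, Dmtn at 4.39, Sptb at 1.40 and Add2 at -0.03. In PCBP2 knockdown cells 8 of 9 were higher, beside 40.9% of all genes, with Slc4a1 at 6.12, Dmtn at 4.44, Sptb at 1.11 and Add2 at -0.14. With library totals Sptb was at -0.03 (adjusted p = 0.819) in PCBP1 knockdown and at -0.32 (adjusted p = 0.00526) in PCBP2 knockdown cells. Add2 was then at -1.46 (adjusted p = 8.04e-13) in PCBP1 knockdown and at -1.57 (adjusted p = 1.77e-13) in PCBP2 knockdown cells, and in PCBP2 knockdown cells it was also called lower in 7 of the 18 fits that left out a library, namely any Day 2 control, any Day 2 PCBP1 hairpin or Day 2 PCBP2 hairpin 4.

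Per length, in TPM, Salmon's transcript abundance corrected for length and depth, the day changed the makeup of the skeleton RNA as well as its amount. In Day 2 controls Slc4a1 averaged 2297 ± 231 TPM (SD, n = 3, as for the TPM values that follow), Epb41 1115 ± 224 TPM and Epb42 431 ± 31.5 TPM. Tmod1 at 163 ± 3.42, Ank1 at 155 ± 17.4 and Dmtn at 137 ± 6.59 TPM formed a middle group, followed by Add1 at 110 ± 10.2 and Sptb at 101 ± 5.44 TPM, with Add2 lowest at 47.5 ± 6.17 TPM. Neighbours in the middle group lay within their spread of each other, apart from Tmod1 over Dmtn, and so did Add1 and Sptb. These sums include transcripts without coding sequence. In Day 2 controls the 2 coding transcripts of Epb42, Epb42-202 and Epb42-201, held 19.2% and 16.8% of its molecules. Epb41-215, without coding sequence, held 37.3% of those of Epb41. The order thus applies to all RNA of a gene, not to its coding RNA alone. In Day 0 controls Add2 was at 178 ± 29.4 TPM and Sptb at 146 ± 28.1 TPM, within their spread of each other, and Dmtn at 16.8 ± 1.09 and Tmod1 at 20 ± 3.45 TPM were at the low end with Epb42 at 23.2 ± 2.43 TPM.

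**Figure D1:**
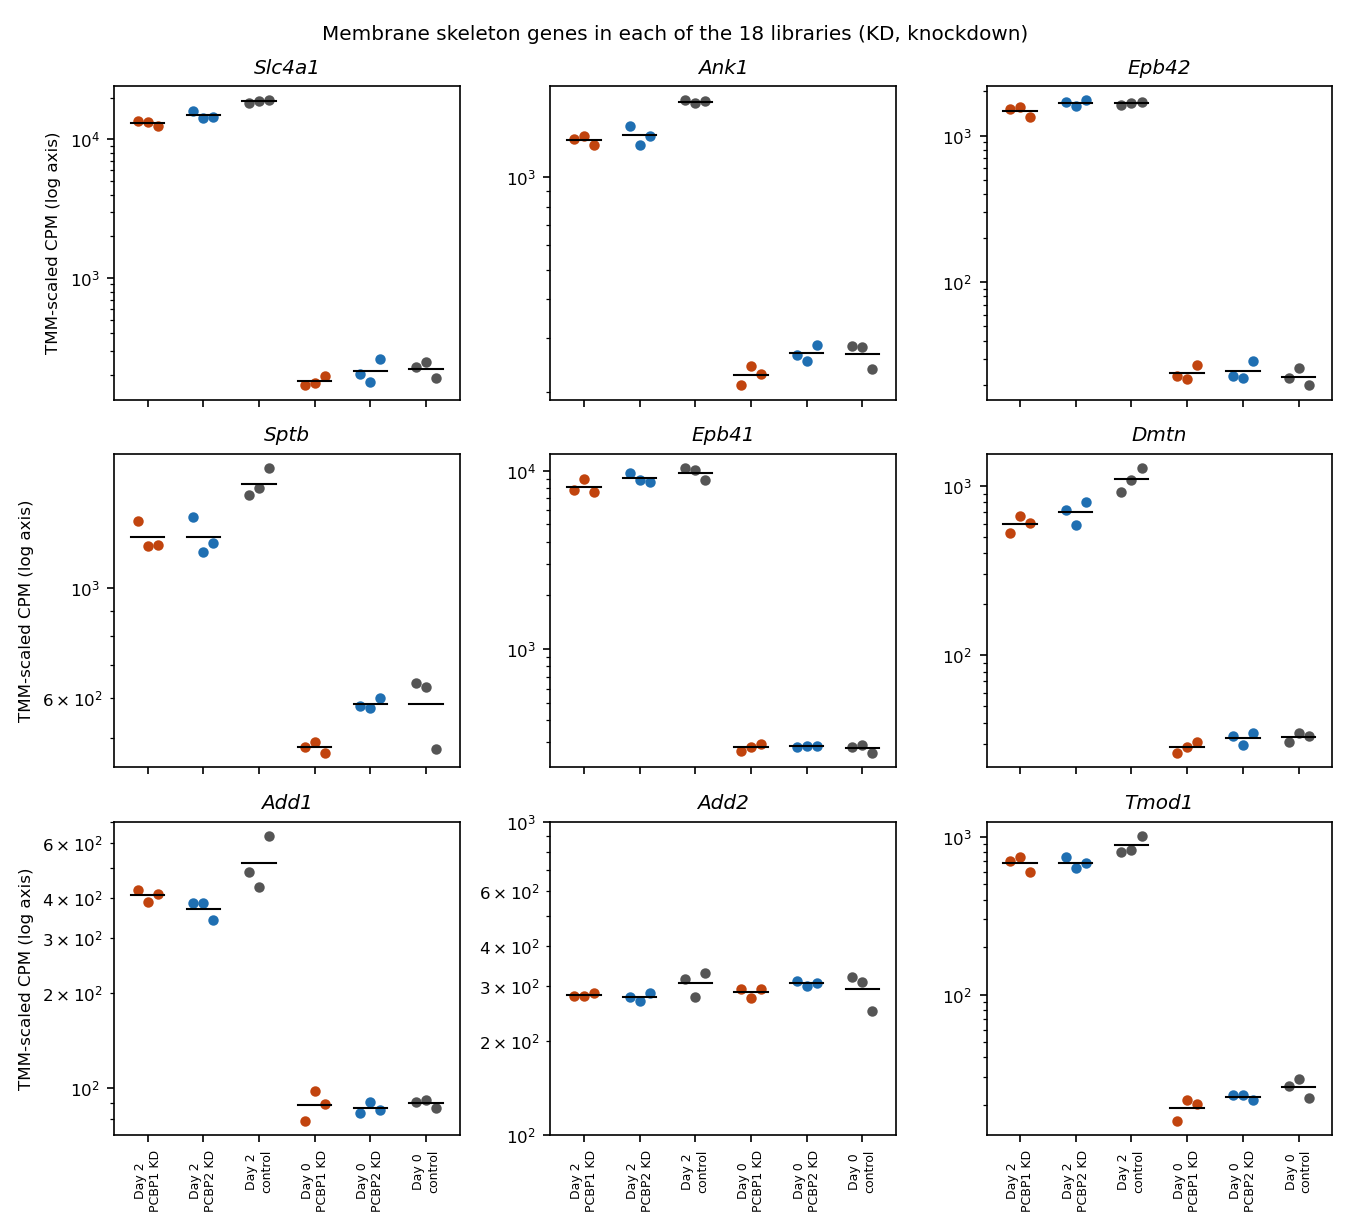
TMM-scaled CPM (log axis) of the 9 skeleton genes in each library, one panel per gene, by day and condition, with a point per library and a bar at the group mean. Slc4a1, Epb42, Epb41, Tmod1 and Dmtn separate the days by 33.2-fold or more in controls, whereas the Add2 libraries of both days overlap between 249 and 329 CPM, and library totals in place of TMM put Add2 lower at Day 2 and Sptb near its Day 0 level.

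At Day 2, PCBP1 knockdown cells had lower levels of 7 of the 9 genes than controls by edgeR's quasi-likelihood test at an adjusted p under 0.05, where 7.51% of all tested genes were lower. Dmtn showed the largest difference. It had 524, 665 and 606 CPM in PCBP1 knockdown libraries, against 916, 1089 and 1276 CPM in controls, a log2 fold change of -0.87 (SE 0.123, edgeR adjusted p = 6.69e-05), or 0.547 of the control level. All 3 knockdown libraries lay below all 3 controls. Dmtn levels, here and elsewhere, sum only the 3 of its 10 annotated transcripts that are listed in the transcript tables. The part of unlisted transcripts in the difference was not tested, and no alternative scaling or fit changes this limit.

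Among the genes of the ankyrin attachment, Slc4a1 had 13595, 13266 and 12479 CPM in PCBP1 knockdown libraries, against 18369, 19006 and 19136 CPM in controls, a log2 fold change of -0.52 (SE 0.113, edgeR adjusted p = 0.00331). Ank1 had 1333, 1359 and 1271 CPM, against 1782, 1742 and 1771 CPM in controls, a log2 fold change of -0.42 (SE 0.0896, edgeR adjusted p = 0.00297). Neither gene's groups overlapped, and the knockdown libraries of each lay close together. Sptb had 1363, 1214 and 1220 CPM, against 1532, 1582 and 1737 CPM in controls, a log2 fold change of -0.35 (edgeR adjusted p = 0.0231). Epb42, the partner of the anion exchanger, averaged 1470 ± 119 CPM in knockdown cells and 1667 ± 37.4 CPM in controls (SD, n = 3 each), and its log2 fold change of -0.18 did not pass (edgeR adjusted p = 0.308).

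Of the genes at the filament ends and junctions, Tmod1 averaged 680 ± 73.8 CPM in PCBP1 knockdown cells and 884 ± 113 CPM in controls (log2 fold change -0.38, edgeR adjusted p = 0.041). Add1 averaged 410 ± 17.3 CPM and 517 ± 102 CPM in controls (-0.34, edgeR adjusted p = 0.0457), and Epb41 8113 ± 762 CPM and 9747 ± 790 CPM in controls (-0.26, edgeR adjusted p = 0.0487). The Epb41 sum includes Epb41-215, an abundant transcript with no coding sequence, which was at -0.74. Its coding transcripts Epb41-202, at 0.18, and Epb41-212, at -0.44, did not pass, so lower coding RNA of Epb41 is not shown. Add2 averaged 280 ± 3.93 CPM and 306 ± 27.6 CPM in controls and did not pass (-0.13, edgeR adjusted p = 0.413). Knockdown and control libraries did not overlap for 7 genes, namely Epb42 and all those called except Epb41, where the knockdown libraries of 12.1% of all genes lay wholly below the controls and 13% of all genes were called in either direction. The median of the 9 genes was -0.35, beside 0.02 over all tested genes.

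These 7 calls were of unequal stability. Dmtn passed under all 23 alternatives run, including every left-out library, with a highest adjusted p of 0.00436, and Ank1 and Slc4a1 passed under 22 each. With library totals in place of TMM only Dmtn passed (log2 fold change -0.63, adjusted p = 0.000567), with Slc4a1 at -0.29 (adjusted p = 0.0621), Ank1 at -0.19, Sptb at -0.12, Tmod1 at -0.14, Add1 at -0.09, Epb41 at -0.04, Epb42 at 0.05 and Add2 at 0.11, where the median of all genes was 0.25. In TPM, likewise, Dmtn was the only gene whose PCBP1 knockdown libraries, at 86.3, 106 and 99 TPM, all lay below the controls, at 130, 140 and 143 TPM. How many of all genes lay so in TPM is not given here. With the 9 Day 2 libraries fitted alone 3 genes passed, Dmtn, Slc4a1 and Ank1, and with a GC trend removed Sptb and Add1 did not pass. The count of 7 fell to 4 without Day 2 SCR-2, Day 2 LUC-1, Day 2 PCBP1 hairpin 1, Day 0 PCBP1 hairpin 4 or Day 0 PCBP2 hairpin 1, 3 or 4, and to 3 without Day 2 PCBP1 hairpin 4. The Epb41 call was kept when Day 0 SCR-1, Day 2 LUC-1, Day 2 PCBP1 hairpin 3 or Day 2 PCBP2 hairpin 4 was left out and lost without any other library, and the Add1 call was kept without Day 0 PCBP1 hairpin 1, Day 2 SCR-2 or Day 2 PCBP2 hairpin 4 and lost without any other. Sptb lost its call without Day 2 SCR-2, Day 2 LUC-1 or Day 2 PCBP1 hairpin 3 or 4, and Tmod1 without any of the 8 libraries named for the count.

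PCBP2 knockdown cells at Day 2 had lower levels of 4 of the 9 genes than controls, where 3.72% of all tested genes were lower and 4.67% were called in either direction by the same edgeR test. These comparisons share their control libraries with those of PCBP1 knockdown. Dmtn again had the largest difference, with 722, 586 and 804 CPM in PCBP2 knockdown libraries, against 916, 1089 and 1276 CPM in controls (log2 fold change -0.64, SE 0.123, edgeR adjusted p = 0.0044). Add1 had 386, 386 and 341 CPM, against 486, 435 and 631 CPM in controls (-0.48, edgeR adjusted p = 0.0142), with LUC-1 the highest control. Ank1 averaged 1368 ± 101 CPM in PCBP2 knockdown cells and 1765 ± 20.8 CPM in controls (-0.37, edgeR adjusted p = 0.0187), and Sptb 1263 ± 108 CPM and 1617 ± 107 CPM in controls (-0.36, edgeR adjusted p = 0.0451). The libraries of these 4 genes all lay below the controls, as did those of 10.4% of all genes.

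Slc4a1 and Tmod1 libraries also lay wholly below the controls but did not pass. Slc4a1 averaged 14885 ± 968 CPM in PCBP2 knockdown cells and 18837 ± 410 CPM in controls (log2 fold change -0.34, edgeR adjusted p = 0.0887), and Tmod1 687 ± 55.5 CPM and 884 ± 113 CPM (-0.36, edgeR adjusted p = 0.0892). Epb41 was at -0.11, Epb42 at 0.01 and Add2 at -0.15, all with overlapping libraries. The median of the 9 genes was -0.36, beside -0.01 over all tested genes. With library totals only Dmtn passed (-0.43, adjusted p = 0.0253), with Add1 at -0.27 (adjusted p = 0.109), Ank1 at -0.17, Sptb and Tmod1 at -0.16, Slc4a1 at -0.14, Epb41 at 0.08, Epb42 at 0.21 and Add2 at 0.05, where the median of all genes was 0.19. In TPM the PCBP2 knockdown libraries lay wholly below the controls for Dmtn, Add1 and Tmod1 and wholly above them for Epb42, with no share over all genes in TPM given here. With the Day 2 libraries fitted alone 0 passed by edgeR, with Dmtn at an adjusted p of 0.0746, and with a GC trend removed Dmtn and Add1 did. DESeq2 called 6, with no share of all genes by DESeq2 given here. Leaving out a library kept the calls of Dmtn, Add1 and Ank1 in every case. The Sptb call was kept without Day 0 SCR-1 or LUC-1, Day 2 SCR-1 or SCR-2, any Day 2 PCBP1 hairpin or Day 2 PCBP2 hairpin 1 and lost without any other. Tmod1 passed without Day 2 SCR-1 or any Day 2 PCBP1 hairpin, and Slc4a1 without Day 0 PCBP2 hairpin 4.

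Set directly against each other at Day 2, the knockdowns differed in none of the 9 genes by edgeR, where 12.3% of all tested genes did and 4582 had an unadjusted p under 0.05; DESeq2 also called 0. Dmtn averaged 704 ± 110 CPM in PCBP2 knockdown and 598 ± 70.7 CPM in PCBP1 knockdown cells (SD, n = 3 each; log2 fold change 0.23, edgeR adjusted p = 0.229). Slc4a1 was at 0.18, Epb42 at 0.19, Epb41 at 0.16 and Add1 at -0.14.

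**Figure D2:**
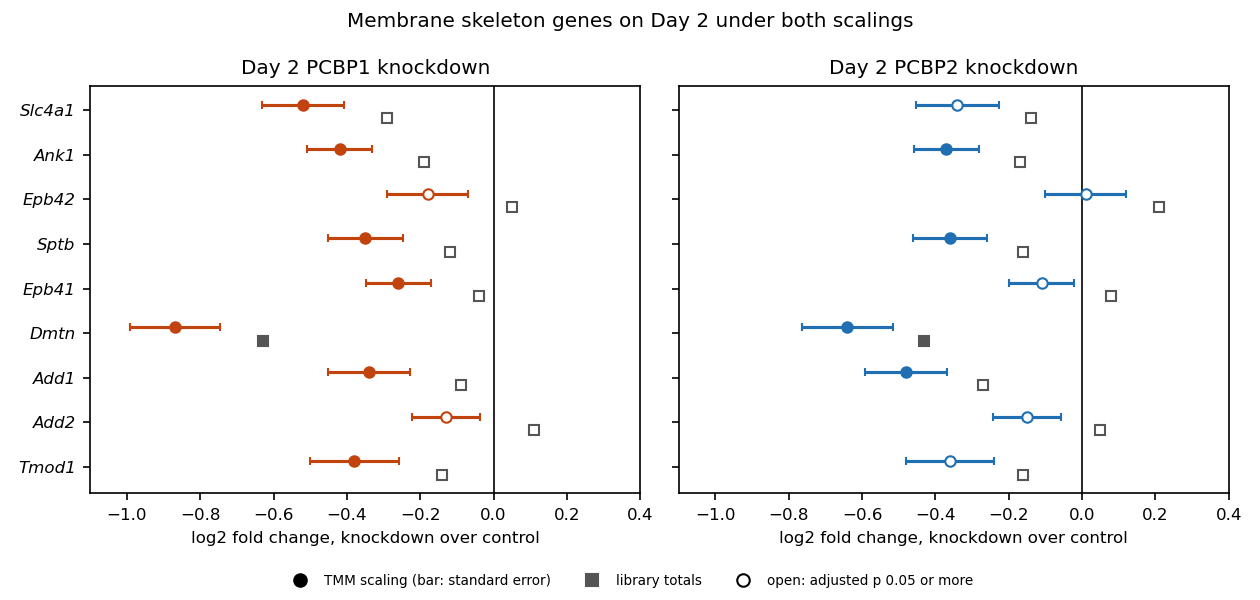
Log2 fold changes at Day 2 of PCBP1 knockdown and PCBP2 knockdown against control for the 9 skeleton genes, with TMM factors (circles, bars of 1 SE) and with library totals (squares). Filled symbols had an edgeR adjusted p under 0.05. Dmtn lies farthest to the left in both comparisons under either scaling, at -0.87 and -0.64 with TMM factors and -0.63 and -0.43 with library totals, where Epb42 and Add2 lie above 0 in both and Epb41 at 0.08 under PCBP2 knockdown.

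At Day 0 edgeR called 0 of the 9 genes for either knockdown. For PCBP1 knockdown 0.891% of all tested genes were called and 1795 had an unadjusted p under 0.05, for PCBP2 knockdown 0.0229% and 563, and DESeq2 called 0 of the 9 in each. Tmod1 came nearest. It had 15.8, 21.5 and 20.3 CPM in PCBP1 knockdown libraries, against 26.4, 29.3 and 22 CPM in controls, with no overlap (log2 fold change -0.43, SE 0.125, edgeR adjusted p = 0.119). How many of all genes showed no overlap at Day 0 is not given here. Sptb was at -0.29 (edgeR adjusted p = 0.245) and passed only without Day 0 LUC-1, whose 475 CPM was the lowest of the controls beside 644 and 633 CPM. Slc4a1 was at -0.30, Ank1 at -0.23 and Dmtn at -0.21. Under PCBP2 knockdown the log2 fold changes ran from -0.21 for Tmod1 to 0.12 for Epb42. PCBP2 against PCBP1 knockdown called 0 of the 9 at Day 0, where 0.257% of all genes and 1144 at an unadjusted p under 0.05 differed, and DESeq2 called 0.

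Whether an effect changed with day was tested as an interaction. For PCBP1 knockdown edgeR called 0 of the 9, where 0.4% of all genes were called and 2287 had an unadjusted p under 0.05. Dmtn was the nearest, with an effect lower at Day 2 than at Day 0 by a log2 difference of -0.66 (SE 0.175, edgeR adjusted p = 0.0855). It passed under 6 of 24 alternatives, which were DESeq2, no filter on low counts, the block on hairpin number with and without a GC trend removed, and leaving out Day 2 SCR-1 or Day 2 PCBP1 hairpin 3. For PCBP2 knockdown 0% of genes were called and 1583 had an unadjusted p under 0.05, with Dmtn at -0.61 (edgeR adjusted p = 0.408) and 0 of the 9 called by DESeq2; it passed without the filter on low counts. The larger Dmtn difference at Day 2 is thus not shown by the edgeR test to exceed that at Day 0.

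The authors also deposited tables of local splicing variations, the sets of junctions that leave or enter an exon, with an expected percent spliced in for each junction, an expected difference between groups and a posterior probability that the difference exceeds 20 points. Replicates were combined in these values, which carry no SD, and the expected difference is the authors' own estimate, not the plain difference of the 2 percentages. Across the authors' deposited tables the 9 genes had 338 distinct variations, of which 2 had a junction with a probability of at least 0.95 in any comparison and 14 a change of at least 10 points. In the authors' deposited tables the member variations with a called junction numbered 1 of 331 for PCBP1 knockdown at Day 2 (0.191% of all variations), 1 of 338 for PCBP2 knockdown at Day 2 (0.0718%), 1 of 306 for PCBP1 knockdown at Day 0 (0.0573%) and 0 of 307 for PCBP2 knockdown at Day 0 (0.0115%).

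Dmtn held the variation called for PCBP1 knockdown, on both days. It consists of the junctions that leave the exon upstream, at 70618191 to 70618606 on chromosome 14, either to the 75-base exon printed above or past it to the acceptor at 70617440. In the authors' deposited table for Day 2, 20.3% of this splicing went to the 75-base exon in PCBP1 knockdown cells and 69.2% in controls (expected difference -50.4 points, probability 1.000). Skipping took 76.7% in PCBP1 knockdown cells and 30.5% in controls in the authors' deposited table. At Day 0 the authors' deposited table gave 24.6% to the exon in PCBP1 knockdown cells and 84.9% in controls (-61.7 points, probability 1.000). Skipping was thus the major path in PCBP1 knockdown cells and the minor one in controls at each day.

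PCBP2 knockdown cells lay between at Day 2. There the authors' deposited table gave 47.4% of the splicing as going to the 75-base exon, against 69.2% in controls (-20.6 points, probability 0.611), below the threshold for a call. At Day 0 it was 70.1% in PCBP2 knockdown cells and 84.9% in controls in the authors' deposited table (-3.91 points, probability 0.003). Seen from the exon downstream, at 70617285 to 70617808, the share that came from the 75-base exon in the authors' deposited table was 71% in PCBP1 knockdown cells and 91.1% in controls at Day 2 (-20.3 points, probability 0.542), and 80.5% and 96.2% at Day 0 (-12.2 points, probability 0.074). This variation counts junctions from other upstream exons as well, and its changes run the same way with smaller size.

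The same exon was measured a second way, as the share of the TPM of Dmtn coding transcripts that lies in transcripts with the exon, in each library. In PCBP1 knockdown libraries it was 84.23%, 87.44% and 83.5% at Day 2, against 90.01%, 92.25% and 91.29% in controls, and 86%, 87.4% and 85.47% at Day 0, against 92.1%, 92.72% and 93.59%. The groups did not overlap on either day. In PCBP2 knockdown libraries it was 91.19%, 91.49% and 91.24% at Day 2 and 91.03%, 93.92% and 95.13% at Day 0, overlapping with the controls each time. Over both days the PCBP1 difference was -6.321 points, with an exact permutation p of 0.005, the smallest that the 400 rearrangements of libraries within days can give. Its adjusted p over the 4227 alternative coding exons tested was 0.1381, and 0 of these exons passed in any knockdown comparison, with 469 at an unadjusted p under 0.05 for PCBP1 over both days and 351 for PCBP2. This test over both days was added after the data had been seen, and within a day 3 libraries against 3 cannot reach a p below 0.10. Tests over both days rearrange each day on its own, although the same hairpins and control constructs occur on both. Their p-values thus take the days as independent, which these data do not settle.

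The sizes differ between the methods. Only 3 of the 10 annotated Dmtn transcripts are listed in the transcript tables, and Dmtn-202 is the only listed one that skips the exon. It also differs from the others in its first exon and its 3′ exons, so its share stands for more than this exon. Dmtn-202 held 14.9% ± 2.09 of Dmtn molecules in PCBP1 knockdown cells, 8.7% ± 0.16 in PCBP2 knockdown cells and 8.82% ± 1.13 in controls at Day 2, and 13.7% ± 0.998, 6.64% ± 2.1 and 7.2% ± 0.752 at Day 0 (SD, n = 3 each). Its usage was called in neither knockdown by edgeR's diffSpliceDGE test.

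**Figure D3:**
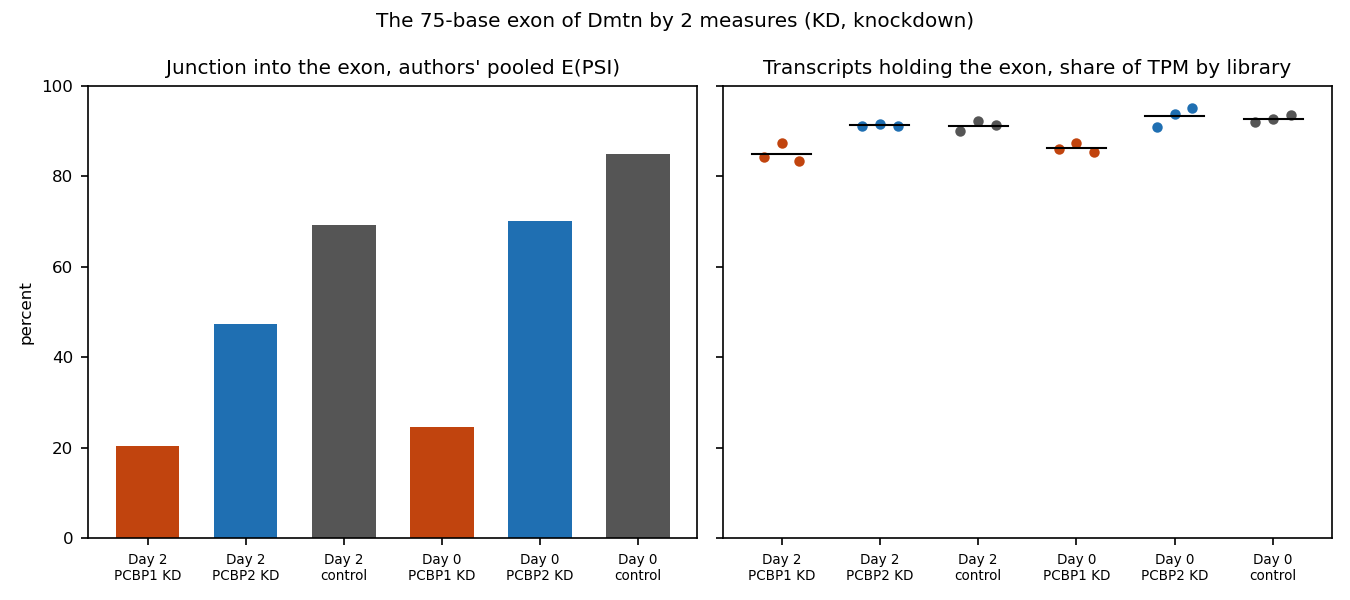
Inclusion of the 75-base Dmtn exon in percent, by day and condition: in one panel the authors' expected percent of splicing from the upstream exon that goes to it (1 bar per group, replicates combined), in the other the share of Dmtn coding TPM in transcripts with it (a point per library). PCBP1 knockdown bars stand at 20.3% at Day 2 and 24.6% at Day 0, against 69.2% and 84.9% in controls, and the points of PCBP1 knockdown stay below all control points on each day.

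In controls the authors' deposited tables gave less splicing to the Dmtn exon at Day 2, 69.2%, than at Day 0, 84.9%, a pair of values with no test between them. By transcript shares over all conditions the day difference was -1.636 points (exact permutation p = 0.02225, adjusted p = 0.05798). At its 5′ side Dmtn had a further pair of variations with changes of at least 10 points, on a change of acceptor at the exon upstream of the 75-base exon. In the authors' deposited table for Day 2 the junction from 70626739 to 70618408 took 42.6% in PCBP2 knockdown cells and 62.7% in controls (-20.4 points, probability 0.555). The junction to 70618553 took 45.2% and 31.4% in the authors' deposited table (13.9 points, probability 0.108).

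Ank1 held the variation called for PCBP2 knockdown at Day 2. It enters an exon at 23037129 to 23037323 of chromosome 8, through unannotated acceptors. In the authors' deposited table the acceptor at 23037167 took 11% in PCBP2 knockdown cells and 62.9% in controls (-53.4 points, probability 1.000), and the one at 23037221 took 80.1% and 34.9% (46.5 points, probability 1.000). This entry is a minor path of the gene. Of all splicing that leaves the first exon at 23035099 to 23035245, the junction to 23037221 took 8.1% in PCBP2 knockdown cells and 2.1% in controls in the authors' deposited table, and the junction to 23064952 took 58.8% and 72.7% (-11.1 points, probability 0.054). Transcripts that start near that exon held 68.4% ± 2.41, 68.9% ± 1.47 and 67.8% ± 3.81 of Ank1 molecules at Day 2 in PCBP1 knockdown, PCBP2 knockdown and control cells (SD, n = 3 each), which lay within their spread of each other.

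At the 3′ end of Ank1, entry into the exon at 23148281 came from the exon ending at 23141304 in 86.6% in PCBP1 knockdown cells and 70.3% in controls in the authors' deposited table for Day 2 (17.1 points, probability 0.216). Entry from the 125-base exon ending at 23141720 was 7.5% and 19.9% in the authors' deposited table (-12.6 points, probability 0.017). By transcript shares the 125-base exon was lower by -6.05 points over both days in PCBP1 knockdown (exact permutation p = 0.01, adjusted p = 0.2103). A further Ank1 variation, entering the exon at 23033151, had 97.7% in PCBP2 knockdown cells and 79.8% in controls at Day 2 in the authors' deposited table (11.5 points, probability 0.129).

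In Slc4a1 both variations around the 182-base exon moved the same way under PCBP1 knockdown at Day 2, below the threshold. Skipping took 25.6% in PCBP1 knockdown cells and 8.5% in controls of what left the exon upstream in the authors' deposited table (17.1 points, probability 0.248). Of what entered the exon downstream it took 20.2% and 7.7% in the authors' deposited table (12.2 points, probability 0.018). Slc4a1-201, which includes the exon, held 95% of Slc4a1 molecules in PCBP1 knockdown cells and 94.7% in controls at Day 2. It is the only coding transcript listed for the gene, so these shares cannot show skipping in coding RNA.

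Epb41 and Tmod1 had changes of at least 10 points at Day 2 that were not called. For Epb41, splicing from the 57-base exon to the 63-base exon took 93.1% in PCBP2 knockdown cells and 76.6% in controls in the authors' deposited table (13.1 points, probability 0.157). For Tmod1, whose variations lie among its first exons, the junction from 46041175 to 46043492 took 18.5% in PCBP1 knockdown cells and 43.5% in controls in the authors' deposited table (-11.5 points, probability 0.258). The Tmod1 junction from 46043636 to 46060966 took 63.5% in PCBP2 knockdown cells and 85.2% in controls in the authors' deposited table (-11 points, probability 0.136). The other 4 genes had no change of 10 points. Their largest in the authors' deposited tables were 7.54 points for Add1 under PCBP1 knockdown at Day 2, -4.96 for Epb42 and -4.38 for Add2 under PCBP2 knockdown at Day 2, and -4.01 for Sptb under PCBP2 knockdown at Day 0.

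Alternative coding exons were counted by annotated start and end, so forms of an exon with different ends count apart. Of 23 such entries of the 9 genes, 9 differed between Day 2 and Day 0, 6 higher and 3 lower (exact permutation test within conditions). Of all 4227 entries 37.2% differed, a share close to that of the member entries. Some entries repeat a measurement. The 99-, 177-, 258- and 120-base Add2 exons had equal values in every library, as had the 8- and 75-base Dmtn exons. The 63-base Epb41 exon changed most. It was in 41.67%, 31.81% and 32.88% of the Epb41 coding TPM in the Day 2 PCBP1 knockdown libraries, in 45.78%, 45.08% and 40.94% in the Day 2 PCBP2 knockdown libraries and in 34.87%, 47.93% and 38.1% in the Day 2 controls. At Day 0 it was in 8.247%, 6.072% and 11.41% in PCBP1 knockdown, 10.03%, 10.62% and 12.14% in PCBP2 knockdown and 10.22%, 9.168% and 11.93% in control libraries. Every Day 2 library lay above every Day 0 library, and the conditions within a day overlapped with the controls. The difference was 29.91 points (exact permutation p = 0.00025, the smallest that 8000 rearrangements can give, adjusted p = 0.001387).

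The same exon showed this in the junctions. In control cells 30.2% of the splicing into the exon downstream came from the 63-base exon at Day 2 and 5% at Day 0 in the authors' deposited tables, values picked after they had been seen and not tested. The other Epb41 exons that were higher at Day 2 were the 57-base exon beside it, by 12.7 points, a 42-base exon, by 9.187, and a 450-base exon, by 5.061. In Add1 a 37-base and a 34-base form of the same exon, starting at 34629136 and 34629139, were higher by 10.61 and 9 points. Ank1 had a 24-base exon lower by -5.574 points and a 375-base exon lower by -24.1 points (exact permutation p = 0.0055, adjusted p = 0.01806), and Add2 a 90-base exon lower by -2.644 points. For Tmod1 the authors' deposited tables gave skipping of the 157-base exon 35% in Day 2 controls and 7.5% in Day 0 controls, again picked after the values had been seen.

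**Figure D4:**
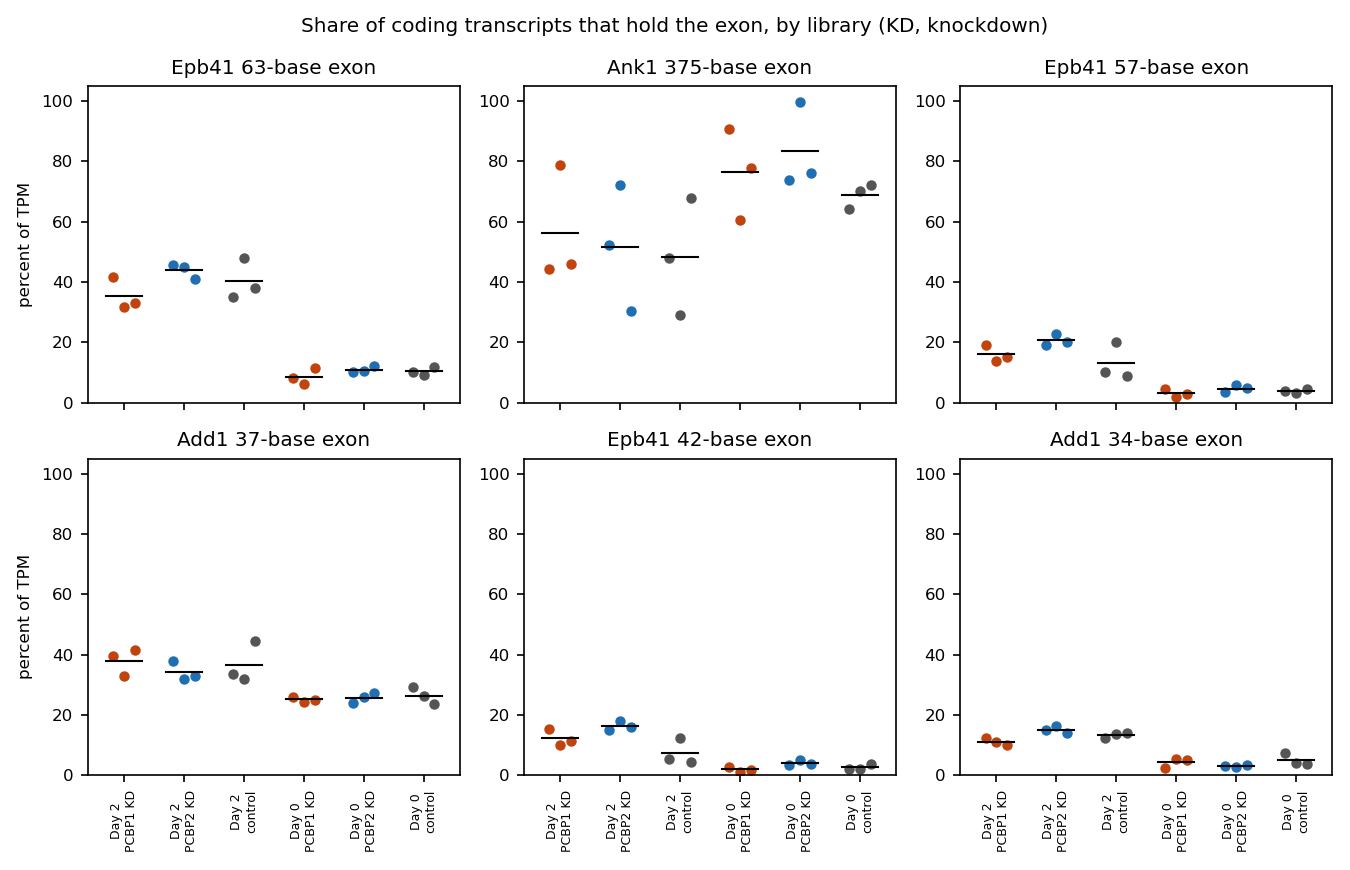
Share of each gene's coding TPM in transcripts that hold an exon, in percent, for the 6 member exon entries with the largest called differences between days, by day and condition, with a point per library and a bar at the mean. The 37-base and 34-base Add1 entries are forms of the same exon. The 63-base Epb41 exon lies between 31.81% and 47.93% in the 9 Day 2 libraries and between 6.072% and 12.14% in the 9 Day 0 libraries, and the 375-base Ank1 exon is lower at Day 2 with a wide spread.

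Of 83 single transcripts of the 9 genes in the tables, 72 passed the filter. In controls 61 were higher and 3 lower at Day 2 than at Day 0 by edgeR's quasi-likelihood test, where 61% of all transcripts changed in either direction. The usage of 18 of them within their gene changed with day by diffSpliceDGE, where 14.8% of all did, in Ank1 (6 of 15 transcripts), Add1 (5 of 14), Epb41 (3 of 16), Slc4a1 (2 of 4), Epb42 (1 of 7) and Tmod1 (1 of 4), and in none of Dmtn, Add2 and Sptb. Epb41-212 held 14.4% of Epb41 molecules in Day 2 controls and 3.23% in Day 0 controls (edgeR adjusted p for usage = 0.000801), and Epb41-202 27.9% and 47.6%. Sptb-202 held 91.7% and 90.8% of Sptb molecules.

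Under PCBP1 knockdown at Day 2, 3 member transcripts were lower, beside 3.26% of all called in either direction. They were Slc4a1-201 (log2 fold change -0.49, edgeR adjusted p = 0.0326), Epb41-215, a processed transcript with no coding sequence (-0.74, edgeR adjusted p = 0.0309), and Ank1-205 (-1.40, edgeR adjusted p = 0.0264). None of the 3 passed without Day 2 SCR-2 or without any 1 of the Day 2 PCBP1 hairpins, and without Day 2 LUC-1 Epb41-201 alone passed. Epb41-215 held 25.3% ± 3.51 of Epb41 molecules in PCBP1 knockdown cells, 26% ± 0.801 in PCBP2 knockdown cells and 37.3% ± 5.51 in controls at Day 2 (SD, n = 3 each). Ank1-205 held 6.34% ± 0.843, 8.84% ± 0.171 and 12.6% ± 1.33 of Ank1 molecules, with a called change of usage under PCBP1 knockdown (edgeR adjusted p = 0.0458), while Ank1-213, the most abundant, held 54.4% ± 2.36, 49.8% ± 0.709 and 44.8% ± 5.06.

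Under PCBP2 knockdown at Day 2, Add1-205 was the 1 lower transcript (-0.43, edgeR adjusted p = 0.0343), beside 0.919% of all. It passed under 11 of 21 alternatives. The call was lost with a minimum of 10 reads, with the Day 2 libraries fitted alone, and without any 1 of 8 libraries, namely Day 0 SCR-1, SCR-2 or LUC-1, Day 0 PCBP1 hairpin 4, Day 0 PCBP2 hairpin 1 or 4 and Day 2 PCBP2 hairpin 1 or 4. Usage calls numbered 3 under PCBP1 knockdown (1.23% of all) and 5 under PCBP2 knockdown (1.06%). Epb41-205 was among both, with 6.25% ± 1.58 of Epb41 molecules in PCBP1 knockdown, 7.39% ± 0.867 in PCBP2 knockdown and 1.46% ± 2.11 in control cells (edgeR adjusted p for usage = 0.0332 and 0.00931). These comparisons share the controls. The other calls were Add1-202 in both, and Add1-206, Ank1-207 and Epb41-203 under PCBP2 knockdown, of which Add1-202, Ank1-207 and Epb41-203 were near 0 in share. At Day 0 edgeR called 0 transcripts and 0 usage changes for either knockdown (0.0746% and 0.597% of all for PCBP1, 0.0128% and 0.251% for PCBP2, with 2959 and 1520 transcripts and 1649 and 1216 usages at an unadjusted p under 0.05), whereas DESeq2 called 4 and 2 transcripts. These shares are edgeR's, and the share of all transcripts that DESeq2 called is not given here.

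Other genes related to the skeleton fall in 3 lists, partners of the net, red cell membrane proteins, and paralogs used in other cells. The membrane proteins are called the complex list or complex genes, after the band 3 and 4.1R complexes. That list also holds transport proteins such as Kcnn4 and Piezo1 that are not taken here as members of these complexes. The lists, too, were set with earlier results of these data known. At Day 2 the complex list showed the most calls of the 3 lists under PCBP1 knockdown, with 7 of 13 lower, 0 higher and a median log2 fold change of -0.38. Slc2a1, the glucose transporter, averaged 2662 CPM in PCBP1 knockdown, 3972 CPM in PCBP2 knockdown and 6298 CPM in control cells (-1.24 for PCBP1, edgeR adjusted p = 9.23e-06, and -0.66 for PCBP2, edgeR adjusted p = 0.00843). Kcnn4, the Gardos potassium channel, averaged 201, 305 and 442 CPM in the same order (-1.13, edgeR adjusted p = 5.09e-06, and -0.53, edgeR adjusted p = 0.0146). Rhd, of the Rh complex, was at -0.68 and -0.63 and the adhesion protein Icam4 at -0.85 and -0.62, all called. Under PCBP2 knockdown 5 of 13 were lower and 0 higher, with a median of -0.31. Over all tested genes 7.51% were lower under PCBP1 knockdown and 3.72% under PCBP2 knockdown. With library totals 4 complex genes were lower under PCBP1 knockdown and 2 under PCBP2 knockdown, with medians of -0.14 and -0.12, beside 3.59% and 1.25% of all genes and medians of 0.25 and 0.19.

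**Figure D5:**
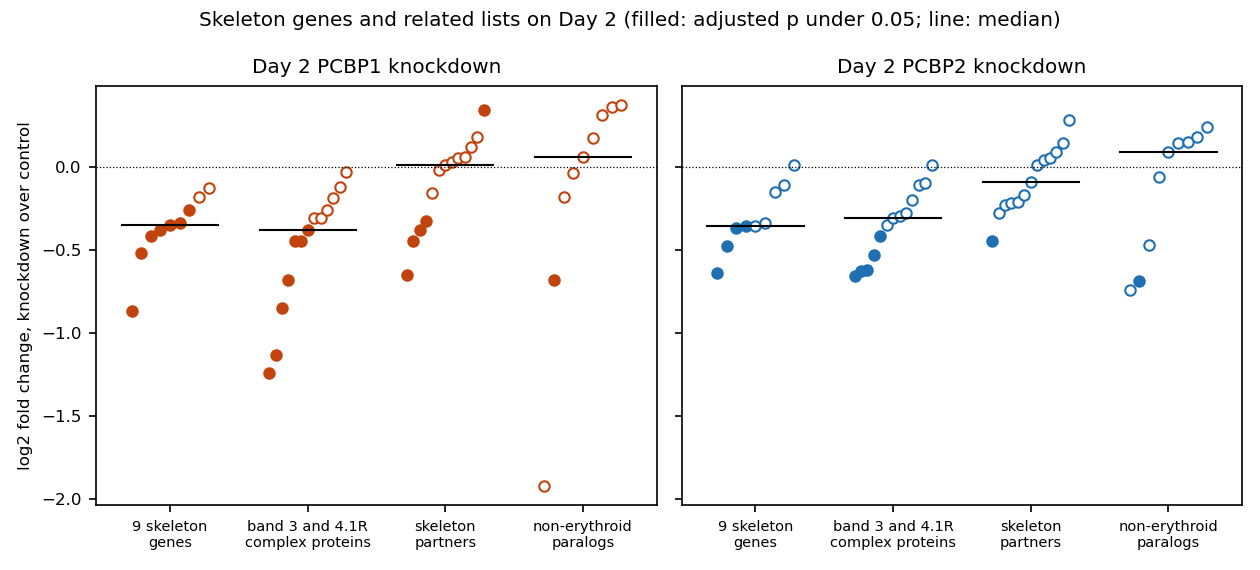
Log2 fold changes (TMM) at Day 2 against control of the 9 skeleton genes and the complex, partner and paralog lists, for PCBP1 knockdown and PCBP2 knockdown, with a point per gene, filled where called by edgeR, and a line at the median. In the complex list 7 of 13 genes are called lower under PCBP1 knockdown and 5 of 13 under PCBP2 knockdown, and the partners spread to both sides of 0.

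The 13 partners went both ways under PCBP1 knockdown. Add3, the third adducin, was at -0.65 (edgeR adjusted p = 0.0104), tropomyosin Tpm1 at -0.33, the cytoplasmic actin Actg1 at -0.45 and glycophorin C, Gypc, at -0.38, while the palmitoylated protein Mpp1 was higher, at 0.34 (edgeR adjusted p = 0.0197). The partners' median was 0.01. Under PCBP2 knockdown Gypc alone was called (-0.45, edgeR adjusted p = 0.0188) and the median was -0.09. Of the 12 paralogs 9 passed the filter, and Slc4a2, a related anion exchanger, was called in both, at -0.68 and -0.69. With library totals the partners' medians were 0.24 and 0.10 under PCBP1 and PCBP2 knockdown. No gene of the 3 lists was called in either knockdown at Day 0.

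With day, in controls, 11 of the 13 complex genes rose and 2 fell (median 1.91), with Slc2a1 at 5.49 and Kcnn4 at 3.28. Of the partners 6 rose and 5 fell (median 0.25), with Tpm1 at 4.26 and Mpp1 at 4.17. Of the paralogs 3 rose and 3 fell (median 0.11), with Epb41l2, a relative of Epb41, at -2.52. Over all genes 40.4% rose and the median was -0.05, so the shares of partners and paralogs that rose lie near that of all genes. With library totals 7 complex genes rose and 6 fell (median 0.27), 4 partners rose and 9 fell (-1.37) and 1 paralog rose and 7 fell (-1.52), beside 20.3% of all genes that rose, 64.8% that fell and a median of -1.68.

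The genes whose log2 CPM followed the mean of the 9 most closely over the 18 libraries were Slc25a39, Cln8, Tbc1d17, Bcl2l1 and Cnppd1 (Pearson r of 0.999 to 1), which mostly measures the step between days that many other genes also show. Over the 9 Day 2 libraries they were Zbed4 at 0.985, Blvrb at 0.981, Arf5 at 0.977, and Polr2c and Gfi1b at 0.974. These values describe libraries that share groups and depth.

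At Day 2 most marker sums overlapped between knockdown and control libraries. With TMM factors the erythroid sum lay below the controls in PCBP1 knockdown only. Endothelial and stromal markers lay above the controls in PCBP2 knockdown, and hepatocyte markers, near 0 CPM, above them in PCBP1 knockdown. The summed level of 7 erythroid markers was 76632 to 80420 CPM in PCBP1 knockdown, 79360 to 92850 CPM in PCBP2 knockdown and 89477 to 100202 CPM in control libraries at Day 2, and 1613 to 1855, 1750 to 1827 and 1656 to 1826 CPM at Day 0. The PCBP1 knockdown range lay below the controls at Day 2 in this scaling, and its part in the lower skeleton genes was not tested. TMM factors at Day 2 were 0.616 to 0.646 in PCBP1 knockdown and 0.503 to 0.57 in controls. The marker sums were not recomputed with library totals, so a separation under that scaling is not shown. Megakaryocyte markers summed to 707 to 804, 638 to 760 and 674 to 770 CPM at Day 2, overlapping between conditions, and neutrophil markers to 402 to 581, 516 to 552 and 388 to 573 CPM. Macrophage markers were at 8.91 to 12.3, 10.3 to 14.5 and 10.8 to 12.3 CPM with C1qa at 0 in PCBP1 knockdown cells, mast cell markers at 2.89 to 3.52, 2.46 to 3.37 and 2.62 to 3.97 CPM with Tpsb2 at 0, and hepatocyte markers at 0.17 to 0.334, 0.109 to 0.191 and 0.0968 to 0.152 CPM with Ttr at 0. Endothelial and stromal markers were at 22.8 to 25.9, 31.9 to 34.9 and 24.7 to 28.2 CPM with Col3a1 at 0 in each and Cdh5 at 0 in PCBP1 knockdown and control cells.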

How the data were processed

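RNA of 18 libraries in 6 groups of 3 was sequenced by the authors. Per the submitters' processing notes the tools were FastQC 0.11.9, Trim Galore 1.46.0, STAR 2.5.3a, SAMtools 1.9 and Salmon 0.11.3, with the build GRCm38; their settings are not given in the sources used here. The deposited tables hold, per the file headers, estimated counts and TPM per transcript. Of the 111706 transcripts listed, 1303 had no match in GENCODE M21; they took 0.275% to 0.579% of the estimated counts and stayed out of gene sums, which used the other 110403. The authors' deposited splicing tables give for each junction an estimated PSI, a fraction, with its expected difference and a probability, per the file headers. The tool behind them is not given in the sources used here, and replicates are combined.

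Estimated counts were summed per gene, rounded and fitted with edgeR 4.0.16 (TMM factors, filterByExpr, robust quasi-likelihood test, 1 fit of 18 libraries with 12 residual degrees of freedom, 17500 genes, Benjamini-Hochberg adjustment over all of them, calls at 0.05) in R 4.3.3 with limma 3.58.1. Single transcripts were fitted the same way, and usage within a gene with diffSpliceDGE. DESeq2 1.42.0 was an alternative. Exon shares came from transcript TPM and were compared by 2-sided exact permutation of libraries within strata, adjusted over 4227 exons with a mean share of 5% to 95%. Tests were checked on simulated data. Python 3.11.15, NumPy 2.4.6, pandas 2.3.3 and matplotlib 3.10.9 were used.

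Alternatives were library totals, no filter, a hairpin-number block, removal of a GC trend, 1 day alone, DESeq2 and leaving out each library. All members are named; of the other lists, up to 4 genes per comparison by smallest p; transcripts with at least 10% of their gene in a group; variations called or changed by at least 10 points, and the largest for a gene with none. The members and lists were chosen with earlier results of these data known. Samples of both days with the same hairpin or control name share that construct. After removal of group means they correlated by -0.009 to 0.042 over all genes, which does not settle whether they are paired. The main fits used no block. Salmon divides reads among overlapping isoforms by a model, so single-transcript values of a gene are less certain than its sum.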

Additional observations from a re-analysis of the deposited data

Results flagged for a closer look

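Among the related lists, 5 genes had effects of the knockdowns at Day 2 that differed from each other by the direct edgeR test of PCBP2 against PCBP1 knockdown. In that comparison 12.3% of all tested genes were called, near the 14.3% that the 5 make of the 35 list genes tested. Kcnn4 was higher in PCBP2 than in PCBP1 knockdown cells by a log2 fold change of 0.60 (SE 0.125, edgeR adjusted p = 0.00366), Add3 by 0.70 (SE 0.161, edgeR adjusted p = 0.00779), Slc2a1 by 0.58 (SE 0.139, edgeR adjusted p = 0.00975) and Kel, a blood group antigen of the 4.1R complex, by 0.47 (SE 0.121, edgeR adjusted p = 0.0142). Mpp1 was lower, at -0.34 (SE 0.097, edgeR adjusted p = 0.0257). Kel averaged 1333 CPM in PCBP2 knockdown, 965 CPM in PCBP1 knockdown and 1322 CPM in control cells, and Add3 50.9, 31.4 and 49.1 CPM in the same order.

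The effect of PCBP1 knockdown differed between the days, by the interaction test, for Slc2a1 (Day 2 minus Day 0, -0.89, SE 0.197, edgeR adjusted p = 0.0458) and Kcnn4 (-0.80, SE 0.178, edgeR adjusted p = 0.0452). These 2 make 5.71% of the 35 list genes tested, beside 0.4% of all tested genes. With library totals 1 of the 13 complex genes was called lower by the interaction test, beside 0.149% of all genes. None of the 9 skeleton genes was singled out by either test.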

How the results depend on the processing

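Of the counts recomputed under an alternative 542 stayed within 1.5 times the reported count, 24 went above and 38 below, and 2210 of 2340 log2 values kept their sign. Library totals lowered the Day 2 counts to 1 for PCBP1 knockdown (from 7) and 1 for PCBP2 knockdown (from 4), and turned Sptb for Day 2 against Day 0 to -0.17 in controls, -0.03 in PCBP1 knockdown and -0.32 in PCBP2 knockdown, and Add2 in controls to -1.57. Fits of 1 day alone gave 3 genes for PCBP1 and 0 for PCBP2 knockdown at Day 2, 1 for PCBP1 knockdown at Day 0 (Tmod1), 0 transcripts for PCBP2 knockdown at Day 2 and 2 usage changes for PCBP1 knockdown at Day 0. Removing the GC trend gave 2 for PCBP2 knockdown at Day 2. Without the filter 1 gene passed for PCBP1 knockdown at Day 0 and 1, Dmtn, for each interaction, and DESeq2 gave 1 for the PCBP1 interaction. For transcripts DESeq2 called 4 and 2 at Day 0 and 13 and 12 at Day 2 for PCBP1 and PCBP2 knockdown, and a minimum of 10 reads left 0 for PCBP2 knockdown at Day 2. Shares of all genes or transcripts called under these alternatives are not given here, except for library totals. The causes of the changed counts were not tested.

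Whether samples with the same hairpin or control name are paired is not settled by these data, so block fits are given beside the main ones. With the replicate block 1 gene (Sptb) passed for PCBP2 against PCBP1 knockdown at Day 0 and 1 (Dmtn) for the PCBP1 interaction, also 1 with the GC trend removed, and 8 of 9 genes passed in each day comparison. Counts with 1 library left out ran from 0 to 1 for PCBP1 knockdown at Day 0, 3 to 7 and 3 to 5 for PCBP1 and PCBP2 knockdown at Day 2, 8 to 9 for the day comparison in PCBP2 knockdown (Add2 being the further gene, called lower), 8 in the other day comparisons and 0 to 1 for the PCBP1 interaction. For transcripts they ran from 0 to 1 for PCBP1 knockdown at Day 0, 0 to 5 and 0 to 4 for PCBP1 and PCBP2 knockdown at Day 2 (usage 1 to 4 and 3 to 5) and 60 to 66 for day (usage 12 to 19), and for exons by day from 8 to 12. Splicing calls were the same in number at probabilities of 0.90 and 0.99. The range of 27033440 to 54096339 reads limits low transcripts most, and the common dispersion was 0.0293 at Day 2, against 0.00749 at Day 0 when each day was fitted alone. The reported tests pool the days, with an SE for Dmtn of 0.123 at Day 2 and 0.125 at Day 0.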
